A study of Mus musculus with 4 samples.

Results

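The transcripts of the translation initiation and elongation factors were compared between livers of fasted and of refed mice. The factors were found on the array by gene name: every non-control probe was taken whose name begins with Eif and a digit from 1 to 6, or with Eef and 1 or 2. The names of the eIF4E-binding proteins (Eif4ebp) and of the eIF2-alpha kinases (Eif2ak) were left out, since these proteins regulate the factors rather than form part of them. This rule took 88 of the 39429 probes, for 59 of the 31709 gene names on the array. Of these, 77 probes for 55 genes were kept, meaning that on all 4 arrays they were well above background in the livers of at least 1 condition. Over the whole array, 19721 probes were kept. The name rule also took 4 genes of another kind, since the Argonaute proteins, which carry small RNAs in gene silencing, bore the names Eif2c1, Eif2c2, Eif2c3 and Eif2c4 when the array was designed (now Ago1 to Ago4).

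Both groups were male C57BL/6J mice (the strain is given as C57/Bl6 for each sample) aged 8 to 12 weeks, and no genetic change or drug was used. The fasted mice were without food for 24 h, and the refed mice had the same 24 h fast followed by 2 h with food, so both groups had fasted and the refed group is not a group fed throughout. Total RNA of 4 fasted and 4 refed livers, each from a single animal, was hybridised in random pairs to 4 two-colour arrays of oligonucleotides, where the RNA of both livers, one carrying the dye Cy5 and the other Cy3, binds the same spots. The fasted liver carried Cy5 on replicates 1 and 2 and Cy3 on replicates 3 and 4. A dye effect was tested as a difference between these 2 pairs of arrays, which held different livers. Dye and liver differences between the pairs therefore cannot be told apart. Values are given as the log2 of the fasted level over the refed level, a positive value being a higher level in the fasted liver, and SDs are over the 4 arrays (n = 4). A gene with several kept probes is represented by its brightest one. A change was called at a limma adjusted p below 0.1, adjusted over all kept probes of the array, either with a change of at least 1.5-fold or, as a second and looser rule, without that limit.

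With 4 arrays, precision is limited by their number. Gene spots had median intensities of 40 to 75 in the red and 44 to 96 in the green channel, above median local backgrounds of 25 to 35 and 20 to 33. The 8 hepatocyte markers examined, Alb and Ttr among them, were all kept in these livers. Probes of these markers had median ratios of 0.27, 0.40, 0.03 and 0.01 on replicates 1 to 4. Of the 8, Tat alone was called, higher in fasted liver at the 1.5-fold rule (0.84, limma adjusted p = 0.0451). Replicate 3 stood apart: all 17 probes of 15 genes that mark pancreatic acinar cells were well above background in its refed liver, against 5, 8 and 6 in the refed livers of replicates 1, 2 and 4. Its fasted liver also had more such probes, 12 against 6, 5 and 5 in the fasted livers of replicates 1, 2 and 4. The median ratio of those probes was 0.01, -0.15 and -0.03 on replicates 1, 2 and 4 and -3.79 on replicate 3. Probes of red blood cell markers had median ratios of 0.39, -0.26, 1.12 and 0.23 on replicates 1 to 4, and those of immune cell markers ran from -0.17 to 0.26. Of 6 probes of adipocyte markers, 4 were well above background in the refed liver of replicate 3 and 1, that of Cfd, in each other liver. Cfd, the only adipocyte marker kept, had ratios of -0.22, 0.55, -1.37 and 0.42. Their part in the results was not tested, and the calls are therefore given with and without replicate 3. In whole liver, fewer cells of a type and less RNA per cell cannot be told apart.

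Translation begins when eIF2, carrying the initiator tRNA, joins the small ribosomal subunit together with eIF1, eIF1A, eIF3 and eIF5, and the eIF4 factors bring in the capped messenger RNA. The start codon is then selected under the control of eIF1 and eIF1A, eIF2 is released with GDP, and eIF2B recharges it with GTP, a step that stress kinases block by phosphorylating eIF2. During elongation eEF1A delivers each aminoacyl-tRNA, the eEF1B subunits recharge eEF1A, and eEF2 moves the ribosome along by a codon. In liver, feeding is known to raise protein synthesis mainly through the insulin and mTOR pathway and the phosphorylation of these factors and their binding proteins, which an array of RNA levels does not measure.

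The study concerned CREB, a transcription factor that binds the cAMP response element (CRE), and the promoters of the genes were therefore searched for the full CRE (TGACGTCA), its short form (TGACG, called the short CRE), the E-box (CACGTG) and 2 forms of the TATA box (TATAAA and TATATAA), on both strands. Only exact matches were taken, whereas the paper allowed a mismatched base in its full CRE. Windows of 300 bases, 250 before and 50 after the transcription start site, were available from RefSeq for 46 of the 59 genes. The 250 bases before the start are shown 5′ to 3′ for Eif1, the factor with the highest ratio of fasted over refed liver, for Eef1e1 and Eif2b4, which were lower in fasted liver, and for Eef2, which was not called but whose promoter holds the most of these motifs. Sequence and coordinates are of the GRCm38.p6 assembly, the coordinates being those of the bases shown, and capitals mark the motifs.
Eif1, chr11:100319699-100319948, plus strand: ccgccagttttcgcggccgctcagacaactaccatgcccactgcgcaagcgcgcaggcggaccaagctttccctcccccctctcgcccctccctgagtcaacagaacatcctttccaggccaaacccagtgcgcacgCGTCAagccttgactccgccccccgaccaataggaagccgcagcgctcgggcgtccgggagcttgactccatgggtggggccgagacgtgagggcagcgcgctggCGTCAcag
Eef1e1, chr13:38659029-38659278, minus strand: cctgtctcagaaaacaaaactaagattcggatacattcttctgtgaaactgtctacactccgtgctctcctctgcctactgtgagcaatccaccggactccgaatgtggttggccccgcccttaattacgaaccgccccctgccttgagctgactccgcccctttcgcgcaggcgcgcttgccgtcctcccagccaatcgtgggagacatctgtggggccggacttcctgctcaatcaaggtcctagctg
Eif2b4, chr5:31193140-31193389, minus strand: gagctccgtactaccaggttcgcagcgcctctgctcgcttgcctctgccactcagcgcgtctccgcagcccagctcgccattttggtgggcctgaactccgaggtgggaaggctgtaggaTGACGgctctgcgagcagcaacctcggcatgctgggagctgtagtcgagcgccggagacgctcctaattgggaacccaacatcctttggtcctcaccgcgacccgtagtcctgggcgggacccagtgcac
Eef2, chr10:81176381-81176630, plus strand: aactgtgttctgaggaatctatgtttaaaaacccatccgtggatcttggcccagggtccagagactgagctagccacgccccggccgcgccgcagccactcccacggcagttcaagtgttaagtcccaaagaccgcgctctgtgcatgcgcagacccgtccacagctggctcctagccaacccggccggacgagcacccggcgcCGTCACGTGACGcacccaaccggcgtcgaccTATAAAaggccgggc
The Eif1 promoter holds a short CRE beginning 113 bases before the start and another 8 bases before it, both read on the opposite strand (CGTCA), and its whole window also holds a TATA box that is not within the bases shown. That of Eif2b4 holds one 130 bases before the start, and in the bases shown for Eef1e1 none of the motifs was found. In the Eef2 promoter, a short CRE on each strand, 46 and 39 bases before the start, overlaps an E-box 43 bases before the start, and a TATAAA lies 15 bases before it. The Eif1 short CRE nearest the start ends the letters TGGCGTCA, which differ from TGACGTCA by a G in place of an A. The paper's looser rule would count these letters as a full CRE. A match says only that these letters are present.

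Over the whole windows, a short CRE was found in 23 of the 46 factor genes, against 23.0% of all 27025 genes with a window, and an E-box in 12 (26.1%), against 8.09%. An exact full CRE was found in 1 factor gene, Eef2, in the bases after its start that are not shown (2.17%, against 2.03% of all genes), and a TATA box in 7 (15.2%, against 17.3%). The short CRE and the E-box were thus present in a larger share of these genes than of all genes, whereas the shares with a full CRE or a TATA box were close to those of all genes. The 46 genes had 61 windows between them, and all 27025 genes had 32851, since a gene can have several start sites. A gene counted if any of its windows held a match, and the comparison was not limited to genes kept in these livers. The reason for the larger shares was not tested. Short CREs occurred in the windows both of genes that were called and of genes that were not, and no window was given for Eif1a or Eef1g, which are called below.

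Most factor transcripts differed little between the 2 conditions. At the 1.5-fold rule, 1 of the 55 genes was higher in fasted liver (Eif1) and 1 was lower (Eef1e1), or 1.82% each, where 1.7% of all kept probes were called higher and 2.08% lower. Without the fold limit, 2 genes were higher (Eif1 and Eif2c4) and 4 lower (Eef1e1, Eif1a, Eif2b4 and Eef1g), or 3.64% and 7.27%, against 4.74% and 6.13% of all kept probes. Counted by probe, 1 higher and 2 lower of 77 passed the first rule, and 2 higher and 5 lower passed the second. These shares lie near those of the array as a whole. The number of lower genes at the second rule was 9 with a dye term in the model (the same 4 and Eif4e, Eif1b, Eif2b5, Eif5a and Eef2k) and 7 with SAM (the same 4 and Eif2b5, Eif5a and Eef2k), and it was 1 without replicate 2, 0 without replicate 3 and 1 without replicate 4. Of these, Eef2k was kept only through the refed livers, where it was higher, and its calls are not support for a difference. For 46 of the 55 genes (83.6%) the 95% confidence interval of the ratio lay wholly within 1.5-fold in either direction, as for 83.3% of all kept probes, so for these genes a change of that size was outside the interval.

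**Figure D1:**
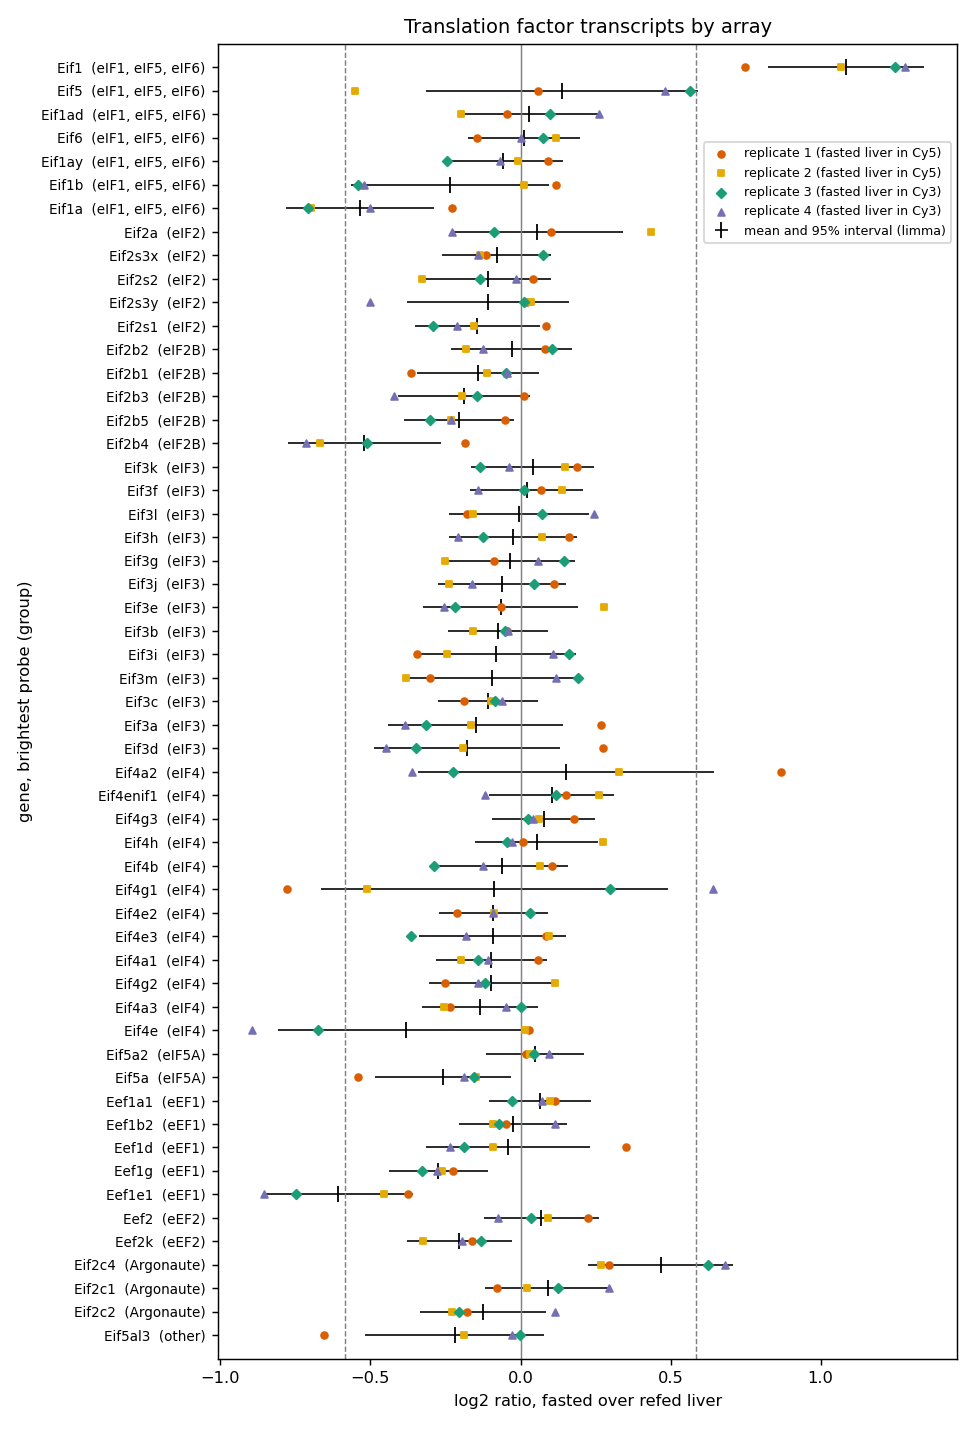
Log2 ratio of fasted over refed liver (x axis) for the brightest kept probe of each of the 55 translation factor genes (y axis, grouped by complex). Points are the 4 arrays, bars the mean with its 95% confidence interval from limma, and dashed lines 1.5-fold. Eif1 lies apart at the right with a mean of 1.09, and most other means lie within 0.2 of 0.

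Taken over all 55 genes, the ratios lay slightly below 0: 39 genes had a mean below 0 (70.9%) and 16 above, against 49.2% below 0 among the 16054 gene names with a kept probe. Their median log2 ratio was -0.08, against 0.00 over all kept genes, and it was 0.01, -0.11, -0.07 and -0.11 on replicates 1 to 4. It lay below 0 on replicates 2, 3 and 4, and not on replicate 1. The middle of the distribution was narrow, since 43 genes (78.2%) had a mean within 0.2 of 0 on the log2 scale, against 70.6% of all kept genes, and the median size of the ratio without its sign was 0.09 against 0.11. Without the 3 kept Argonaute genes the median of the other 52 was -0.08. Without replicate 3 the median of the 55 genes was -0.09, and with arrays centred on their median in place of loess it was -0.19, the median of all kept probes then being -0.06.

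**Figure D2:**
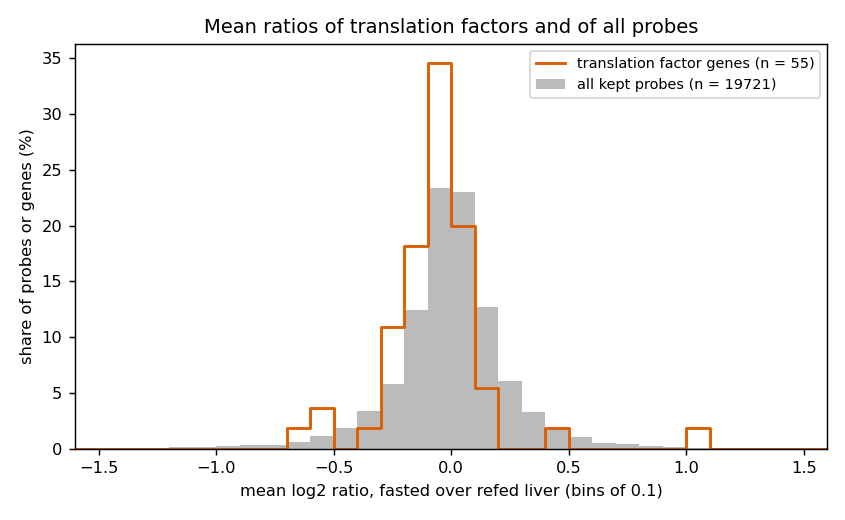
Distribution of the mean log2 ratio of fasted over refed liver (x axis, bins of 0.1) for the 55 translation factor genes (orange line) and all 19721 kept probes (grey bars), as a share of each (y axis, percent); a few probes beyond the plotted range are not drawn. The factors peak between -0.1 and 0, their median being -0.08, and only Eif1 lies beyond 1.

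In the group of the eIF1, eIF1A, eIF5 and eIF6 genes and their relatives, Eif1 was higher in fasted liver and Eif1a lower. The other 5 kept genes of the group were not called. Eif1 encodes eIF1, which holds the ribosome in its scanning form and keeps it from starting at unsuitable codons. Its normalised intensity (probe at chr11:100183303-100183362, mm9) was 17720.3, 15294, 15113 and 15233 in the fasted livers and 10564, 7303, 6364 and 6274 in the refed livers of replicates 1 to 4. All 4 fasted livers lay above all 4 refed livers, and the refed liver of replicate 1 was the highest of its group. The log2 ratios were 0.75, 1.07, 1.25 and 1.28, a mean of 1.09 ± 0.24 (SD, n = 4) or a 2.12-fold higher level in fasted liver (adjusted p = 0.00686). Without replicate 3 the mean was 1.03 (adjusted p = 0.0393).

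Its paralogue Eif1b was not called. Its ratios of 0.12, 0.01, -0.54 and -0.52 averaged -0.23 (adjusted p = 0.393), and they parted by dye orientation, with values near 0 where the fasted liver carried Cy5 and below -0.5 where it carried Cy3. The dye term of limma was called for this probe (adjusted p = 0.0482), and with that term in the model Eif1b was called lower (adjusted p = 0.0426). The 2 paralogous transcripts were thus measured at 1.09 and -0.23, and the difference between them was not tested.

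Eif1a encodes eIF1A, which binds beside the decoding site and works with eIF1 in scanning. Its normalised intensity was 1858, 1868, 1813 and 1951 in the fasted and 2177, 3032, 2960.2 and 2766 in the refed livers, with no overlap, the refed liver of replicate 1 being the lowest of its group. The ratios were -0.23, -0.70, -0.71 and -0.50, a mean of -0.53 ± 0.22 (SD, n = 4, adjusted p = 0.0376), which is 1.45-fold lower in fasted liver and so below the 1.5-fold limit. With 3 arrays in place of 4 the call was lost without replicate 2 (-0.48, adjusted p = 0.134), without replicate 3 (-0.48, adjusted p = 0.158) and without replicate 4 (-0.55, adjusted p = 0.114), whereas without replicate 1 Eif1a passed the 1.5-fold rule (-0.64, adjusted p = 0.0288), as it did with median centring (-0.67, adjusted p = 0.00929). Eif1ay, the X-linked copy now named Eif1ax, was at -0.06 (adjusted p = 0.763).

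The remaining members of this group are Eif5, which makes eIF2 hydrolyse its GTP, Eif6, which keeps the ribosomal subunits apart, and Eif1ad, which resembles eIF1A. Eif6 averaged 0.01, and Eif5 averaged 0.14 with ratios of 0.06, -0.55, 0.56 and 0.48 and a called dye effect (adjusted p = 0.0852). Without replicate 3 the mean of Eif5 was 0.00, with a negative sign, and with median centring in place of loess it was -0.01. The 2 kept probes of Eif1ad disagreed. The brighter probe gave 0.03 (adjusted p = 0.910), while the dimmer gave -0.35, -0.34, -0.82 and -0.98, a mean of -0.62 ± 0.32 (SD, n = 4), and passed the 1.5-fold rule on its own (adjusted p = 0.0467). That dimmer probe also had a called dye effect (adjusted p = 0.0569) and lost its call without replicate 3 (-0.56, adjusted p = 0.180), and no direction is given here for Eif1ad.

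**Figure D3:**
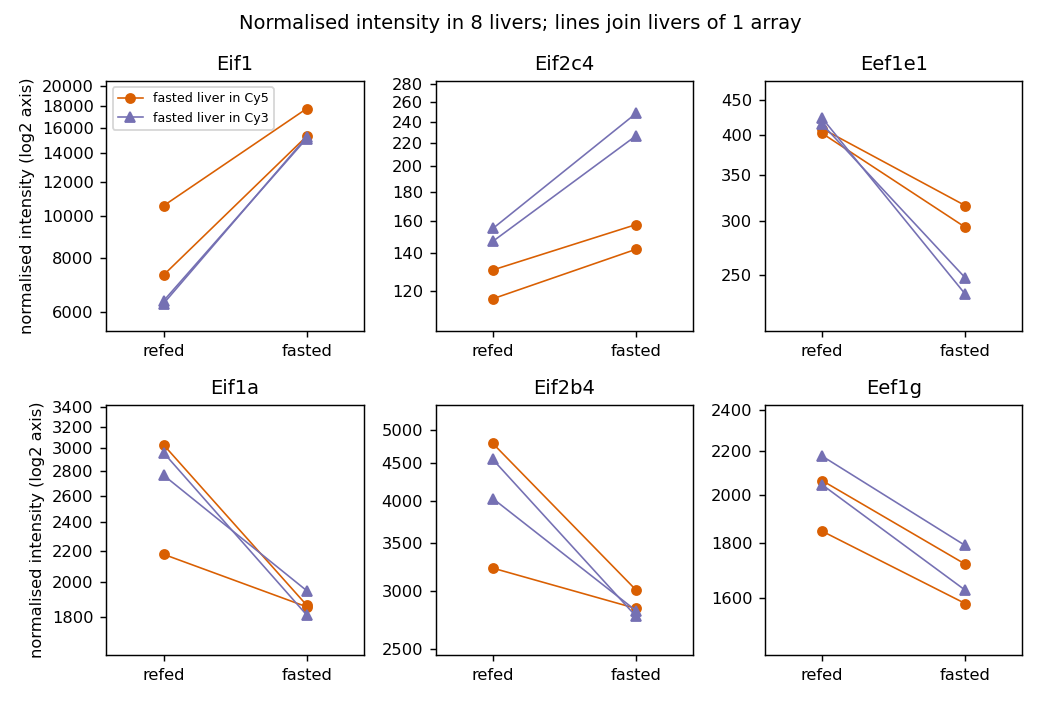
Normalised intensity (y axis, log2 scale) of the 6 called translation factor genes in the refed and fasted livers (x axis), with a line joining the 2 livers of each of the 4 arrays and colour and marker showing which dye the fasted liver carried. All 4 lines rise for Eif1 and Eif2c4 (Ago4) and fall for Eef1e1, Eif1a, Eif2b4 and Eef1g, and the fasted and refed livers overlap in Eif2c4 only.

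The subunits of eIF2, the carrier of the initiator tRNA, were not called. Eif2s1, which encodes the alpha subunit that the stress kinases phosphorylate, had ratios of 0.08, -0.16, -0.29 and -0.21, a mean of -0.14 (adjusted p = 0.409). The beta subunit gene Eif2s2 was at -0.11, and the genes of the gamma subunit on the X and Y chromosomes, Eif2s3x and Eif2s3y, were at -0.08 and -0.11. Eif2a, a separate initiation factor in spite of its name, was at 0.05. All 5 intervals lay within 1.5-fold.

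All 5 subunit genes of eIF2B, the exchange factor of eIF2, had a mean below 0, the median being -0.19, and 1 of them was called. Eif2b4, the gene of the delta subunit, had normalised intensities of 2843, 3015, 2823 and 2774 in the fasted livers and 3229.9, 4793, 4026 and 4556 in the refed livers. The groups did not overlap, and as in Eif1a the refed liver of replicate 1 was the lowest of the refed group. The ratios of -0.18, -0.67, -0.51 and -0.72 gave a mean of -0.52 ± 0.24 (SD, n = 4, adjusted p = 0.0448), 1.43-fold lower in fasted liver. The call was lost without replicate 2 (-0.47, adjusted p = 0.152), replicate 3 (-0.52, adjusted p = 0.162) or replicate 4 (-0.45, adjusted p = 0.149), whereas without replicate 1 Eif2b4 passed the 1.5-fold rule (-0.63, adjusted p = 0.0281), as it did with median centring (-0.66, adjusted p = 0.0165).

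The catalytic subunit gene Eif2b5 was not called, although all 4 of its ratios, -0.05, -0.23, -0.30 and -0.23, lay below 0 and the fasted and refed livers did not overlap. Its mean was -0.20 ± 0.11 (SD, n = 4, adjusted p = 0.186). It was called lower with a dye term in the model (adjusted p = 0.0758), with SAM and with median centring (-0.30, adjusted p = 0.0903). Eif2b3 (-0.19), Eif2b1 (-0.14) and Eif2b2 (-0.03) were not called either.

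The 13 kept genes of eIF3, the large scaffold that joins the small ribosomal subunit to the eIF4 factors, varied little: 0 were called by limma at either rule, 0 had an unadjusted p below 0.05, all 13 intervals lay within 1.5-fold, and the means ran from -0.18 (Eif3d) to 0.04 (Eif3k). In all, 11 of the 13 genes had a mean below 0, with a group median of -0.07. Eif3a, the gene of the largest subunit, had ratios of 0.27, -0.16, -0.32 and -0.38, a mean of -0.15 (adjusted p = 0.552). Only Eif3b and Eif3c of this group had 1 sign on all 4 arrays, with means of -0.07 and -0.11.

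Of the 12 kept eIF4 genes, 0 were called by limma at either rule and 0 had an unadjusted p below 0.05. The group median was -0.09. Eif4e encodes the cap-binding protein, the target of the eIF4E-binding proteins. Its normalised intensity was 796, 901, 692 and 609.6 in the fasted and 781, 892, 1105 and 1133 in the refed livers. The groups overlapped, because the 2 livers of replicate 1, and likewise those of replicate 2, were alike, and only replicates 3 and 4 showed a lower level in the fasted liver. The ratios were 0.03, 0.01, -0.67 and -0.89, a mean of -0.38 ± 0.47 (SD, n = 4, adjusted p = 0.280). With a dye term in the model, which takes up the difference between the dye orientations, Eif4e was called lower at the same mean (adjusted p = 0.0135). The second kept Eif4e probe gave -0.27, and both probes had a called dye effect (adjusted p = 0.0364 and 0.0540).

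Eif4g1, which encodes the scaffold that bridges the cap-binding protein and eIF3, had ratios of -0.78, -0.51, 0.30 and 0.64, a mean of -0.09 ± 0.67 (SD, n = 4, adjusted p = 0.888). The sign followed the dye orientation, and the dye effect was called (-0.56 for Cy5 over Cy3, adjusted p = 0.0332). The helicase genes Eif4a1 and Eif4a2 averaged -0.10 (0.06, -0.20, -0.14 and -0.11; adjusted p = 0.536) and 0.15 (0.87, 0.33, -0.22 and -0.36; adjusted p = 0.742). For Eif4a2 the sign again followed the dye orientation, with a called dye effect (adjusted p = 0.0569). The intervals of Eif4e, Eif4g1 and Eif4a2 each reached beyond 1.5-fold, whereas those of the other 9 genes of the group did not.

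**Figure D4:**
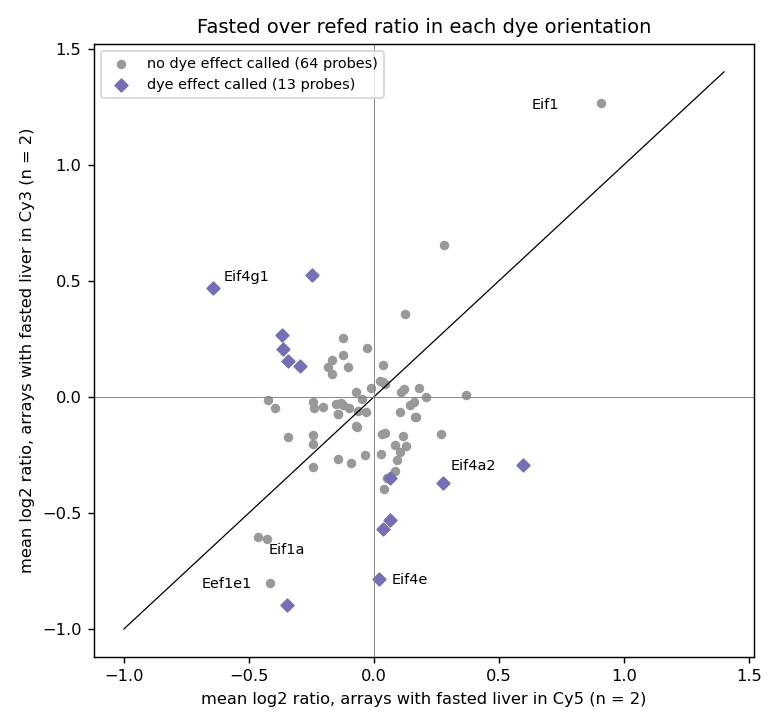
Mean log2 ratio of fasted over refed liver on the 2 arrays with the fasted liver in Cy5 (x axis) and on the 2 arrays with it in Cy3 (y axis) for the 77 kept translation factor probes, the diagonal marking equal values. Diamonds are the 13 probes with a called dye effect; Eif1, Eef1e1 and Eif1a keep 1 sign in both orientations, whereas Eif4g1, Eif4a2 and Eif4e do not.

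A dye effect was called for 13 of the 77 kept probes (16.9%), a share near the 14.8% of all kept probes, with sizes of 0.21 to 0.56 on the log2 scale. The number depended on the processing: it was 1 with the software's processed signals, 1 with median centring and 3 with the background model fitted to all spots, and 5, 11, 2 and 0 without replicates 1, 2, 3 and 4. Of these 13 probes 7 were brighter in Cy5 and 6 in Cy3, and for 12 the mean ratio turned sign between the dye orientations, the exception being the dimmer Eif1ad probe. Across the 77 probes, which share arrays and normalisation, the ratios of replicates 1 and 2 correlated at Pearson's r = 0.609 and those of replicates 3 and 4 at 0.853, while pairs of arrays with opposite dyes correlated at 0.0533 to 0.315. Over all kept probes the 2 like-dye pairs gave 0.664 and 0.752, and the opposite pairs 0.223 to 0.396. Since each orientation was used on 2 arrays, a constant dye effect cancels in the means over all 4 arrays. It does not cancel where 1 array was left out, since 1 orientation then rests on 1 array. A difference between the livers of replicates 1 and 2 and those of replicates 3 and 4 would appear as the same effect.

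The genes with names in Eef1 held 2 of the 4 lower calls. Eef1e1, also known as the AIMP3 component of the multi-tRNA synthetase complex, had normalised intensities of 315, 293, 247 and 234 in the fasted livers and 409, 402, 415 and 424 in the refed livers. The refed livers lay close together, the fasted livers all lay below them, and those of replicates 3 and 4 were the lowest. The ratios of -0.37, -0.46, -0.75 and -0.86 averaged -0.61 ± 0.23 (SD, n = 4, adjusted p = 0.0280), 1.52-fold lower in fasted liver and just past the fold limit. Without replicate 3 the mean was -0.56 and the call was lost (adjusted p = 0.124). Without replicate 4 the mean was -0.53 (adjusted p = 0.0940), which passed the looser rule but not the 1.5-fold limit.

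Eef1g encodes the gamma subunit of eEF1B. Its normalised intensity was 1579.8, 1720.4, 1626 and 1791 in the fasted and 1848, 2062, 2043 and 2174 in the refed livers, a small but even difference with no overlap. The ratios of -0.23, -0.26, -0.33 and -0.28 averaged -0.27 ± 0.04 (SD, n = 4, adjusted p = 0.0730), 1.21-fold lower in fasted liver. The second kept probe gave -0.22 and was not called (adjusted p = 0.141). Leaving out any 1 array ended the call, the adjusted p then lying between 0.129 without replicate 1 and 0.278 without replicate 3. The mean itself moved little, being -0.29, -0.28, -0.26 and -0.27 without replicates 1, 2, 3 and 4.

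The other 2 subunits of eEF1B, Eef1b2 (-0.03) and Eef1d (-0.04), were not called, and the difference of either from Eef1g was not tested. Eef1a1, the gene of eEF1A, the carrier of aminoacyl-tRNA, had ratios of 0.12, 0.10, -0.03 and 0.07, a mean of 0.06 (adjusted p = 0.673), with an interval from -0.10 to 0.23. Eef2, the gene of the translocase, had ratios of 0.23, 0.09, 0.03 and -0.08, a mean of 0.07 (adjusted p = 0.689), with an interval from -0.12 to 0.26. A 1.5-fold change thus lay outside the interval for both of these central elongation factors, and the sign of both turned, to -0.10 and -0.09, when arrays were centred on their median in place of loess. Eef2k, the kinase that inactivates eEF2, was at -0.20 (adjusted p = 0.170; 0.0726 with a dye term in the model), but its probe was well above background on only 1 array in fasted liver and so was kept through the refed livers alone.

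Eif5a, whose product carries the modified residue hypusine and helps the ribosome through stretches of proline, had ratios of -0.54, -0.15, -0.16 and -0.19, a mean of -0.26 ± 0.19 (SD, n = 4, adjusted p = 0.175). All 4 lay below 0, the fasted and refed livers did not overlap, and replicate 1 was the farthest from 0. Eif5a was called lower with a dye term in the model (adjusted p = 0.0784) and with SAM. Eif5a2 was at 0.05 (adjusted p = 0.758). Eif5al3, named in the present annotation as a pseudogene of Eif5a, was at -0.22 with ratios of -0.66, -0.19, 0.00 and -0.03 (-0.07 without replicate 1), and it is uncertain which of the 2 near-identical sequences its probe measured.

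Among the Argonaute genes, Eif2c4 (Ago4) was called higher in fasted liver at the looser rule. Its normalised intensity was 142, 157, 227 and 248 in the fasted and 116, 131, 147 and 155 in the refed livers, each fasted liver lying above the refed liver of its own array while the groups as a whole overlapped. The ratios of 0.29, 0.27, 0.63 and 0.68 averaged 0.47 ± 0.22 (SD, n = 4, adjusted p = 0.0501), 1.38-fold higher in fasted liver. The second kept probe gave 0.24 (adjusted p = 0.149), but it was well above background on only 3 arrays in refed liver and so was kept through the fasted livers alone, and it is no second support for a difference. The call of the brighter probe was lost without replicate 3 (0.41, adjusted p = 0.198) or replicate 4 (0.40, adjusted p = 0.162). Eif2c4 passed the 1.5-fold rule with no background correction (0.61), with plain subtraction (0.70), with processed signals (0.86) and with the authors' deposited ratios (0.62), the adjusted p lying between 0.0170 and 0.0226. Eif2c1 (Ago1) and Eif2c2 (Ago2), the latter the Argonaute that cuts its targets, were at 0.09 and -0.12 and were not called.

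The remaining members add little. Ratios had 1 sign on all 4 arrays for 15 of the 55 genes (27.3%), against 29.6% of all kept probes, and the normalised intensities of the fasted and refed livers did not overlap for 8 genes (14.5%), against 13.6%. These 8 were Eif1, Eif1a, Eif2b4, Eif2b5, Eif3c, Eif5a, Eef1e1 and Eef1g. Several probes were kept for 20 genes, and for 18 of these the probe means lay within 0.25 of each other, the exceptions being Eif1ad and Eif2s3x. Eef1a2, the muscle and brain form of eEF1A, Eif4e1b, an oocyte form of eIF4E, and Eif5b, which joins the ribosomal subunits, had no probe well above background on any array. Eif2c3 (Ago3) was well above background on 1 array in fasted and 3 in refed liver, and none of these 4 genes is given a ratio.

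Around the factors, 45 genes of termination and recycling, of messenger RNA end binding, of factor modification, of regulation and of mitochondrial translation were examined, and 44 were kept. At the 1.5-fold rule 0 were higher and 2 were lower (4.55%, against 2.08% of all kept probes). Without the fold limit 2 were higher (4.55%, against 4.74%) and 8 lower (18.2%, against 6.13%), with a median ratio of -0.04 over the 44. Eif2ak3 encodes PERK, the eIF2-alpha kinase of the endoplasmic reticulum. Its ratios of -0.62, -0.52, -1.40 and -0.80 averaged -0.83 ± 0.39 (SD, n = 4, adjusted p = 0.0328), with the lowest value on replicate 3. Pelo, which rescues stalled ribosomes, had ratios of -0.74, -1.15, -0.51 and -0.50, a mean of -0.72 ± 0.31 (SD, n = 4, adjusted p = 0.0289). Both genes were lower in fasted liver on all 4 arrays. Without replicate 3 both passed the 1.5-fold rule, Eif2ak3 at -0.65 (adjusted p = 0.0712) and Pelo at -0.80 (adjusted p = 0.0865). Without replicate 2 Pelo fell short of 1.5-fold (-0.58, adjusted p = 0.0701), and without replicate 4 Eif2ak3 was not called (-0.84, adjusted p = 0.1002).

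Mknk2, a kinase of eIF4E, was higher at 0.58 (adjusted p = 0.0541), just short of 1.5-fold, and so, by a smaller amount, was Ppp1r15a, the inducible subunit that directs a phosphatase to eIF2-alpha, at 0.31 (adjusted p = 0.0603). Its constitutive counterpart Ppp1r15b was lower at -0.35 (adjusted p = 0.0700). The genes Mcts2 (-0.34), Paip2b (-0.36), an inhibitor of the poly(A)-binding protein, and Dph2 (-0.42), which acts in the diphthamide modification of eEF2, were also lower at the looser rule. So were the mitochondrial genes Tsfm (-0.26), the exchange factor of the mitochondrial elongation factor Tu, and Mtrf1l (-0.48), a release factor. Without replicate 3, Mtrf1l kept its call (-0.51, adjusted p = 0.0926), while Mknk2, Ppp1r15a, Ppp1r15b, Mcts2, Paip2b, Dph2 and Tsfm lost theirs, with adjusted p from 0.185 (Mknk2) to 0.262 (Ppp1r15b) and unchanged signs. In that order, the means of these genes without replicate 3 were 0.57, 0.30, -0.30, -0.32, -0.34, -0.35 and -0.29. Over the 17 alternatives, that one included, the call was lost under 11 for Tsfm (among them the authors' deposited ratios, adjusted p = 0.117, and no background correction, adjusted p = 0.107), 8 for Ppp1r15a, 5 each for Mcts2 and Dph2, and 4 each for Mknk2, Paip2b and Ppp1r15b. Mknk2 was lost with median centring (0.43, adjusted p = 0.219), and Mtrf1l under 1 of 16 alternatives, that with the background model fitted to all spots. Of the genes of the eIF4E-binding proteins, Eif4ebp1 was at 0.40 (adjusted p = 0.104) and Eif4ebp3 at 0.74 with ratios of 1.49, 0.34, 1.34 and -0.21 (adjusted p = 0.204), and neither was called, although Eif4ebp1 passed the looser rule under 7 of 17 alternatives, among them the dye term (adjusted p = 0.0241), and Eif4ebp3 passed the 1.5-fold rule without replicate 4 (1.06, adjusted p = 0.0997).

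The 6 called genes were followed under the other ways of processing the arrays. Eif1 had means of 0.93 to 1.20 and kept its call under every alternative except when the background model was fitted to all spots. There its mean was again 1.09 but its adjusted p was 0.150. At the 1.5-fold rule limma then called 20 probes on the whole array, against 335 higher and 410 lower as reported. Eif2c4, Eef1e1, Eif1a, Eif2b4 and Eef1g kept their sign under every alternative that gave them a value (16 for Eif2c4 and 17 for each of the others), with means of 0.15 to 0.86, -0.71 to -0.23, -0.67 to -0.38, -0.66 to -0.44 and -0.41 to -0.18. All 5 calls were lost with the background model fitted to all spots, and each was lost when at least 1 of the arrays was left out. Eef1g was also lost with plain background subtraction (adjusted p = 0.161), with the software's processed signals (adjusted p = 0.144) and with the authors' deposited ratios (adjusted p = 0.108), and Eif2c4 with the channels taken separately (adjusted p = 0.187).

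**Figure D5:**
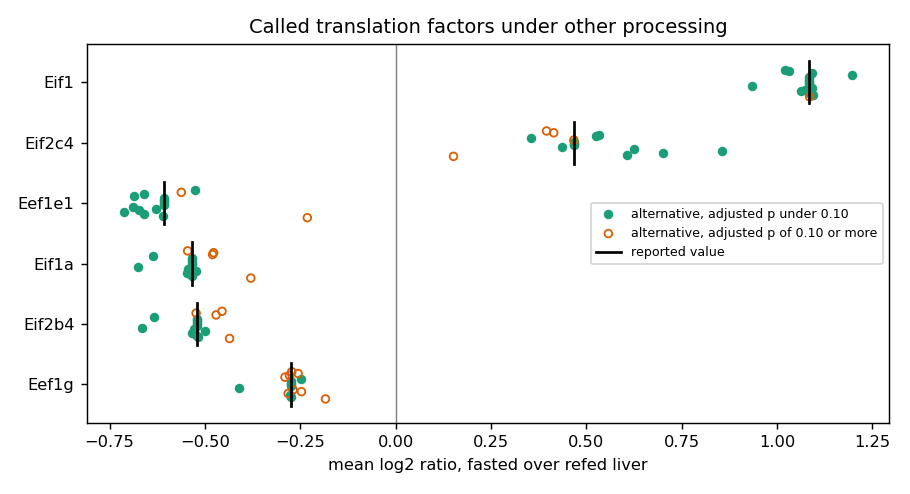
Mean log2 ratio of fasted over refed liver (x axis) of the 6 called genes (y axis) as reported (black line) and under each alternative with a limma test (points, spread vertically only to keep them apart). Filled points passed an adjusted p of 0.1 and open points did not; Eif1 has 1 open point, and Eef1g has the most.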

How the data were processed

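RNA of 4 fasted and 4 refed livers was hybridised in a dye swap to 4 arrays of 44397 spots each. The files deposited by the authors hold scanner output from Agilent's Feature Extraction software as raw intensity per spot, with local background and quality flags, and not yet normalised. A second deposited table holds the authors' log2 ratios, normalised by loess within arrays (limma, per the labels); its background step is not given in the sources used here, and it was used as an alternative only. Its rows were matched to spots by row number (Pearson's r of 0.975 to 0.992 with the ratios computed here). Its column medians were -0.12, -0.08, 0.06 and 0.01.

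Processing used R 4.3.3 and limma 3.58.1 and began from median signals. Background correction was by normexp (offset 50), leaving out up to 29 spots per array whose local background exceeded 3 times the array's median, followed by loess within arrays. Control spots and 197 to 322 flagged spots per array were left out, no spot was saturated, and spots of one probe were averaged. The sign was set by dye orientation so that fasted stands over refed, and ratios were tested, two-sided, with lmFit and eBayes and Benjamini-Hochberg adjustment over 19721 kept probes, without a dye term. The study's limits (10% false discovery rate, 1.5-fold) were used, and SAM, which it names, was rebuilt with all 16 sign flips as an alternative. Intensities given per liver combine these ratios with average intensities quantile-normalised between arrays. The dye effect was a second term of the same model. Compression of ratios by normexp's offset is greatest for dim probes.

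The members, gene lists and background rule were chosen with earlier results of these data known. Values on every array are given for called factor genes, for related genes called at the 1.5-fold rule and for a fixed list of defining factors (Eif4e, Eif4g1, Eif4a1, Eif4a2, Eif2s1, Eif2b5, Eif3a, Eif5a, Eef1a1 and Eef2). Related genes called at the looser rule alone are given by their means. Other genes are summarised or named as examples, and Eif1b, Eif1ad, Eif5, Eif5al3 and Eif4ebp3 were chosen after their values were seen. Probe coordinates are those of the files (mm9). Names were matched through accessions to RefSeq genes of GRCm38.p6 for 85 of 88 probes. Promoters came from a RefSeq table of the same assembly. Alternatives covered background, source of values, centring, filters, dye term, SAM, separate channels, probe choice and leaving out each array.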

Additional observations from a re-analysis of the deposited data

Results flagged for a closer look

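On replicate 1 the ratio of Eif5a lay far from the other arrays. Its log2 ratios of fasted over refed liver were -0.54, -0.15, -0.16 and -0.19, and the gap between replicate 1 and its nearest neighbour was 0.901 of the whole range. This was the only one of 33 results examined with so large a gap, and chance gives about 1 in 20. Without replicate 1 the mean of Eif5a was -0.16.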

How the results depend on the processing

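In all, 17 alternatives were run, with 4 arrays in most and 3 where an array was left out. As reported, 1 gene was higher and 1 lower at the 1.5-fold rule, and 2 and 4 at the adjusted p alone. With normexp fitted to all spots all 4 numbers were 0, and 0 of the related genes were lower, with a dye effect on 3 probes. Limma then called 20 probes in all at the 1.5-fold rule, against 335 higher and 410 lower as reported. With normexp leaving out spots of flagged background, 49 of the 55 genes had a value; 1 gene was higher at the adjusted p alone and 1 related gene was lower, since Eif2c4 and Pelo then had no value. The higher genes at 1.5-fold numbered 2 (Eif1 and Eif2c4) with no background correction, with plain subtraction, with the software's processed signals and with the authors' deposited ratios. The lower genes at 1.5-fold numbered 2 with subtraction and with processed signals, and 3 with median centring. Related genes at 1.5-fold were 1 higher and 4 lower with processed signals, and 1 higher with the deposited ratios. The dye effect was called for 1 probe with processed signals and for 1 with median centring, where the median ratio of the factors was -0.19. The lower genes at the adjusted p alone numbered 9 with a dye term and 7 with SAM. The arrays pair the livers at random; with the channels taken separately and no replicate block, so that this pairing was not used, 1 gene was higher at the adjusted p alone. Leaving out each array in turn gave 1 to 1 higher and 0 to 3 lower genes at 1.5-fold, 1 to 2 higher and 0 to 3 lower at the adjusted p alone, 0 to 2 higher and 1 to 2 lower related genes, 0 to 11 probes with a dye effect, and a median ratio of -0.09 to -0.06. The sign turned for Eef1a1 (-0.0990) and Eef2 (-0.0870) with median centring, for Eif4a2 without replicate 1 (-0.0864, the range without each array being -0.0864 to 0.323), and for Eif4g1 without replicate 1 (0.14) and without replicate 2 (0.05; range -0.33 to 0.14). It also turned for Eif5 with median centring (-0.0115) and without replicate 3 (-0.00409; range -0.00409 to 0.37). It did not turn for the other factors that were followed through the alternatives, namely the called genes, Eif4e, Eif4a1, Eif2s1, Eif2b5, Eif3a, Eif5a, Eif1b and Eif5al3. Eif4e, Eif1b, Eif2b5, Eif5a and Eef2k gained a call with the dye term. The alternatives for the related genes, for Eif1b, Eif5 and Eif5al3, and for most of the dye effects were chosen after seeing the data. The cause of these changes was not tested. Where 1 array was left out, the number of arrays, the livers included and the balance of the dyes changed together. Signal over background limits what can be said of the 11 probes that were not kept.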
